A study of Mus musculus with 96 samples.

Results

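Of the 12628 H3K4me3 peaks in neuronal nuclei of the mouse hippocampus, 857 lay outside promoters. They were chosen by position alone, as the peaks whose deposited annotation did not begin with promoter, the class that reaches 2 kb to either side of an annotated transcript start. The other 11771 peaks were promoter peaks, and the 6 tables of the study held 22815 peaks in all. Among the 857 non-promoter peaks, 408 were distal intergenic (47.6%), 236 were exonic (27.5%), 156 were intronic (18.2%), 34 lay in a 3′ UTR, 22 in a 5′ UTR and 1 downstream of a gene. At the boundary of the rule, the nearest non-promoter peak, at Clec11a, was 2009 bp from its annotated start, and the farthest promoter peak was 1996 bp away.

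H3K4me3 is the trimethylation of lysine 4 of histone H3. It is deposited by the COMPASS family of methyltransferases, in part through subunits with a CXXC domain that binds unmethylated CpG, and it marks active and poised promoters, most strongly at CpG islands. Peaks away from annotated promoters can belong to transcripts missing from an annotation, to enhancers, to CpG islands inside genes, or to repeats whose reads align in excess. Mutyh and Ogg1 encode DNA glycosylases that start base excision repair of adenine paired with 8-oxoguanine and of 8-oxoguanine itself, respectively.

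Nuclei came from hippocampi of male C57BL/6N mice 6 months old, which were wild type (WT), Mutyh-/-, Ogg1-/- or deficient for both genes (DKO), with 3 replicate libraries per genotype and tissue of 5 animals pooled in each library. Nuclei carrying NeuN, the product of Rbfox3, were sorted as neurons (NeuN+), and both knockouts are constitutive, so that every cell of the animal carried them. The study profiled H3K4me3 and H3K27me3 together with Suz12, which belongs to Polycomb repressive complex 2 (PRC2), in NeuN+ and in NeuN- nuclei, 72 libraries in all, and the 12 H3K4me3 NeuN+ libraries are described here. A sort yields a bulk sample, in which fewer marked nuclei and less of the mark in each nucleus cannot be told apart.

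The 12 libraries held 96023 to 548706 reads in peaks, with DKO replicate 1 the shallowest and Ogg1-/- replicate 3 the deepest. The deposited values are read numbers scaled by 1 factor per library, and they are called normalised reads below. Each of the 12628 peaks was a window of 401 bp, so that levels of different peaks compare over equal length. The median non-promoter peak had 4 to 26 reads per library and the median promoter peak 7 to 44. Of 11 neuronal marker genes, 10 had a promoter peak in this table (Gad2 had none), and their summed value ranged from 160 to 366 over the libraries. Among markers of other cells, 1 of 6 oligodendrocyte genes (Mbp) and 1 of 4 astrocyte genes (Slc1a3) had one, against 0 of 4 for microglia and 0 of 3 for endothelium. Single promoter peaks of the neuronal markers had means of 9.35 to 29.5. That of Mbp, at 28.6 (17.4 to 40.9 over the libraries), and that of Slc1a3, at 14.1, were inside this range. Slc1a3 also had a non-promoter peak, as did 3 of the 11 neuronal genes (Map2, Neurod2 and Snap25). At the promoter of Ogg1 the mark was present in 11 of 12 libraries, at 0 to 17.9 normalised reads, and no peak was annotated to Mutyh. A promoter peak outside the deleted part of a gene does not check a knockout.

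A window of 30 bases is shown for a few selected peaks, as examples of how their sequences could differ. For each peak the window is the stretch of that length with the most CpG dinucleotides, read from GRCm38 on the plus strand, with every CpG in capitals. The first 3 peaks sit at starts of non-coding transcripts, the next 2 lie away from any start near the neuronal genes Fos and Neurod2, and the last 2 are the intronic peak with the smallest p in DKO and the highest peak of all.
9330198I05Rik (5′ UTR peak, chr5:108367601-108367630): cCGaCGgCGgCGgCGctgagCGCGcaggCG
9330102E08Rik (exonic peak, chr6:128200433-128200462): CGagctcCGtgtgCGagaggcCGCGttaCG
Mir30d (exonic peak, chr15:68362767-68362796): cCGaggggCGgCGcCGcccccCGcCGgcCG
Fos (distal peak, chr12:85486078-85486107): CGgCGcCGtgaCGtctgccCGcCGcttcCG
Neurod2 (distal peak, chr11:98338936-98338965): CGgggCGggCGCGgcCGggCGggCGgggCG
Filip1l (intronic peak, chr16:57391510-57391539): cctcccCGgCGCGgCGggCGagaCGggcCG
Lrrc4c (exonic peak, chr2:98667079-98667108): cttgaaaaatgaCGaaatcactaaaaaaCG
The windows of the first 6 peaks hold 6 to 8 CpG dinucleotides each. That of Lrrc4c holds 2 in an adenine-rich stretch. Because each window was chosen for its CpG, these numbers do not describe the whole set.

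Across the whole set, CpG content was lower than at promoters. A peak with a GC content of at least 50% and a CpG observed over expected ratio of at least 0.6 is called CpG-rich, and 492 of the 857 non-promoter peaks were (57.4%), against 82.7% of promoter peaks. The median GC content was 61.1% outside promoters and 67.1% at promoters, and the median CpG ratio was 0.69 against 0.80. Classes of non-promoter peaks differed widely, with 86.4% of 5′ UTR peaks, 72.5% of exonic peaks, 64.7% of 3′ UTR peaks, 51.0% of distal peaks and 46.2% of intronic peaks CpG-rich. Repeats went the other way. At least 50% of the bases were soft-masked in the genome sequence in 47 non-promoter peaks (5.48%) and in 16 promoter peaks (0.136%). At 85 non-promoter peaks (9.92%), and at 206 promoter peaks (1.75%), some stretch of 75 bases, the read length, occurred more than once in the genome, so that reads there could not all be placed uniquely.

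Many of the exonic and 5′ UTR peaks were at transcript starts that the authors' annotation did not use. The annotation given here, GENCODE release 21, also lists non-coding transcripts and pseudogenes, and 223 non-promoter peaks (26.0%) had their centre within 1 kb of one of its starts. Of these starts, 182 did not belong to protein-coding genes: 79 were of lincRNAs, 27 of antisense transcripts and 22 of processed pseudogenes. The share near a start was 72.7% for 5′ UTR peaks (16 of 22) and 63.6% for exonic peaks (150 of 236), against 8.58% for distal peaks (35 of 408) and 10.9% for intronic peaks (17 of 156). The plot of features by class sets these shares beside those of promoter peaks.

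**Figure D1:**
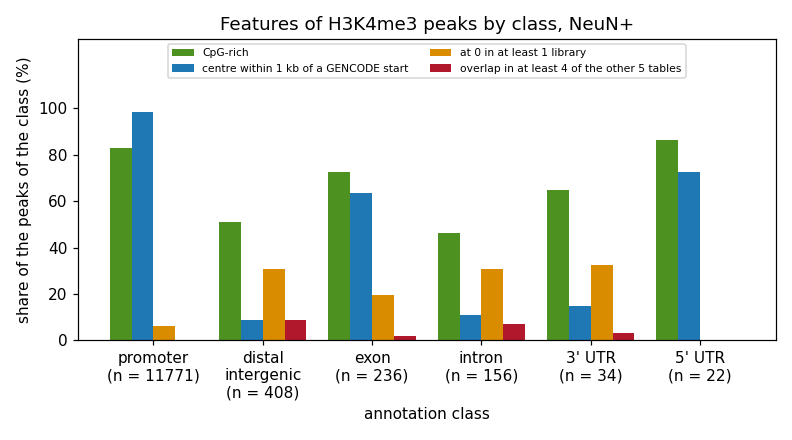
Bars give, for promoter peaks and for 5 annotation classes of non-promoter peaks (number of peaks in brackets), the share in percent that was CpG-rich, that lay within 1 kb of a GENCODE start, that was at 0 in at least 1 library, and that overlapped a peak in at least 4 of the other 5 tables. Exonic and 5′ UTR peaks stand nearest to promoters in the first 2 measures, while distal and intronic peaks stand at 8.58% and 10.9% near a start.

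Short motifs were counted on both strands in the 401 bp of each peak, as a description of sequence and not of binding. The GC box GGGCGG was in 52.2% of non-promoter and 69.3% of promoter peaks, and in 69.9% of the CpG-rich non-promoter peaks. The ETS motif CCGGAAGT was in 2.10% and 3.53%, and all 18 non-promoter peaks that held it were CpG-rich. TATAAA, the core of the TATA box, was in 10.0% against 3.15%, and AP-1, spelled TGANTCA, in 6.42% against 3.65%. AP-1, the site of Fos and Jun dimers, was most frequent in intronic (9.62%) and distal peaks (7.35%) and was at 3.39% in exonic peaks. The full cAMP response element TGACGTCA, which CREB binds, was in 9 non-promoter peaks (1.05%) and in 1.29% of promoter peaks. None of these motifs contains another. Of the 9 peaks, 3 were annotated to miRNA genes, and they are shown with the element in capitals because these genes are expressed in the brain (chosen after their values were seen).
Mirlet7a-1 (intronic peak, chr13:48545886-48545915): gacggcggaagTGACGTCAtagaggcccgg
Mir129-2 (intronic peak, chr2:94246923-94246952): tcatcagctgcTGACGTCAcgtgcagattc
Mir129-1 (distal peak, chr6:28981440-28981469): taatgacgcaaTGACGTCAatgcaggtcag
The Mirlet7a-1 peak was 714 bp from the start of the lincRNA 6720427I07Rik and the Mir129-1 peak 309 bp from that of the lincRNA Gm3294.

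H3K4me3 levels outside promoters were lower than at promoters in every library. The median of the mean value over the 12 libraries was 14.2 normalised reads for non-promoter peaks (interquartile range 10.5 to 18.3) and 24.3 for promoter peaks (18.1 to 29.7). On the log2(value + 1) scale the mean of non-promoter peaks was below that of promoter peaks by 0.85 ± 0.11 (SD, n = 12 libraries), with differences of -1.03 to -0.68, lower in 12 of 12 libraries (exact sign-flip permutation test, two-sided p = 0.000488, the smallest it can give, adjusted p = 0.000488 over 4 such comparisons). Within the set, CpG-rich peaks were above the others by 0.83 ± 0.26, exonic peaks were above distal peaks by 0.27 ± 0.064, and peaks within 1 kb of a GENCODE start were above the rest by 0.26 ± 0.071. Each of these 3 differences had the same sign in 12 of 12 libraries, with the same exact p of 0.000488. Libraries of different genotypes are counted together in these tests.

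**Figure D2:**
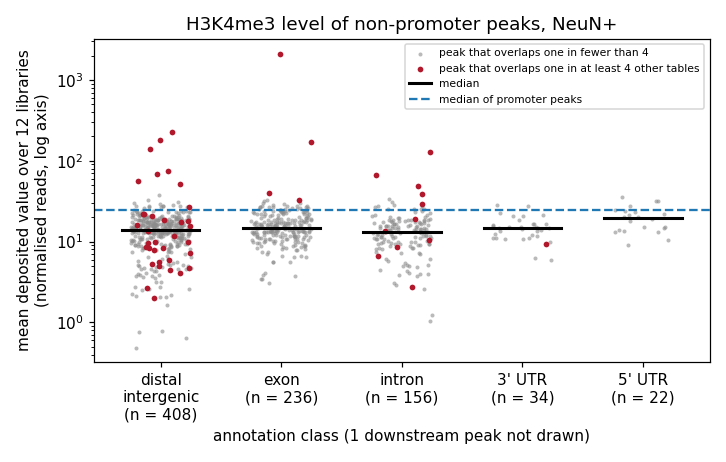
Each point is 1 non-promoter peak, placed by its mean value over 12 libraries in normalised reads (log axis) within its annotation class, with black bars at the class medians and the dashed line at the median of promoter peaks, 24.3. Class medians lie between 13.2 and 19.6, and the points above 40 in the distal, exonic and intronic classes are in red, for peaks that overlapped a peak in at least 4 other tables.

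Class medians ran from 13.2 in introns through 13.98 in distal DNA, 14.6 in 3′ UTRs and 14.9 in exons to 19.6 in 5′ UTRs. At the upper end of the 5′ UTR class, the peak at 9330198I05Rik (chr5:108367303-108367703), 266 bp from the start of the lincRNA Gm10419, had 46.3, 23.4 and 24.8 in WT, 36.0, 31.2 and 49.1 in Mutyh-/-, 32.1, 26.7 and 62.3 in Ogg1-/- and 22.6, 33.8 and 35.6 in DKO. Its mean of 35.3 was above the upper quartile of promoter peaks, and the genotypes overlapped. The next 5′ UTR peaks were at Rap2b, a small GTPase of the Ras family (mean 32.1 normalised reads, 742 bp from the start of B430305J03Rik), and at Sf3b5, a subunit of the splicing factor SF3b (31.5). The highest 3′ UTR peaks were at Nr2f1, an orphan nuclear receptor that patterns the cortex and hippocampus (28.5), Vsig8 (27.3) and Clec11a (22.8). The 1 downstream peak, at Sertad1, had a mean of 12.7.

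The highest distal, intronic and exonic peaks were of another kind, which showed in the other tables of the study. A non-promoter peak was called recurrent when it overlapped, by at least 1 bp, a peak in at least 4 of the other 5 tables (H3K4me3 in NeuN- nuclei, and H3K27me3 and Suz12 in both fractions), and 51 were (5.95%), 34 of them in all 5. Among promoter peaks 5 were recurrent (0.0425%). As background, H3K27me3 and Suz12 belong to repressed chromatin. The recurrent peaks were 35 distal, 11 intronic, 4 exonic and 1 in a 3′ UTR. Their median CpG ratio was 0.31, 19 of 51 had at least 50% of masked bases, and 24 of 51 held a 75-base stretch found more than once in the genome. At the other end, 691 non-promoter peaks (80.6%) overlapped no peak of another table, and of these 8 were largely masked (1.16%) and the highest mean value was 37.5, at Macf1.

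Taken by table, overlap was lower than that of promoters for the same mark in the other fraction and higher for the Polycomb marks. H3K4me3 peaks of NeuN- nuclei were overlapped by 108 non-promoter peaks (12.6%) and by 24.6% of promoter peaks. For H3K27me3 the shares were 8.05% and 1.11% in NeuN+ and 6.77% and 1.46% in NeuN- nuclei. For Suz12 they were 9.92% and 1.27% in NeuN+ and 9.22% and 0.110% in NeuN- nuclei. Of the 69 non-promoter peaks that overlapped a NeuN+ H3K27me3 peak, 46 were recurrent, as were 50 of the 85 that overlapped a NeuN+ Suz12 peak.

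All of the 12 highest non-promoter peaks were recurrent. The first (chr2:98666960-98667360) was classed as exonic and annotated to Lrrc4c, which encodes a netrin-G ligand of the synapse. This peak lay 1198871 bp from the start of that gene but 141 bp from that of Gm10800, and was 97.01% masked. It had 0, 9258 and 0 normalised reads in WT, 8713, 0 and 0 in Mutyh-/-, 0, 0 and 614 in Ogg1-/- and 2948, 0 and 3953 in DKO. The value was thus 0 in 7 of 12 libraries and between 614 and 9258 in the other 5. By mean value over the 12 libraries it also ranked 1 of 4132 peaks in H3K27me3 NeuN+ and 1 of 775 in Suz12 NeuN+. The peak at chr2:98662501-98662901 followed the same libraries, with 664 in WT replicate 2, 834 in Mutyh-/- replicate 1, 323 and 227 in DKO replicates 1 and 3, and 0 in the other 8. So did an exonic peak annotated to Mir101c (chr9:3025356-3025756, 95.3% masked), at 142, 147, 111 and 72.8 in those 4 libraries and 0 in the rest, and the intronic peak at 4933422A05Rik (95.0% masked), at 615, 513, 11.3 and 266 in them and 152 in Ogg1-/- replicate 3.

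Other recurrent peaks were at hand in every library. The distal peak annotated to Ly6c2, a gene of the Ly6 family of surface proteins (chr15:75086590-75086990), had the second highest mean, 225, with 165, 201 and 149 in WT, 379, 149 and 167 in Mutyh-/-, 342, 129 and 284 in Ogg1-/- and 293, 101.3 and 340 in DKO. The highest library of each knockout lay above all 3 of WT, and each knockout also had a library within or below the WT range. An intronic peak of Cdk8, a kinase of the Mediator complex, had 12.9, 30.2 and 62.5 in WT and 10.3 to 158 in the knockouts. Pex2, Axin2 and Gm7102, named after their values were seen, had distal peaks with means of 75.1, 69.2 and 51.97. Of the 12 highest peaks, 6 were thus above 0 in 4 or 5 libraries only and 6 in all 12, as their plot shows.

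**Figure D3:**
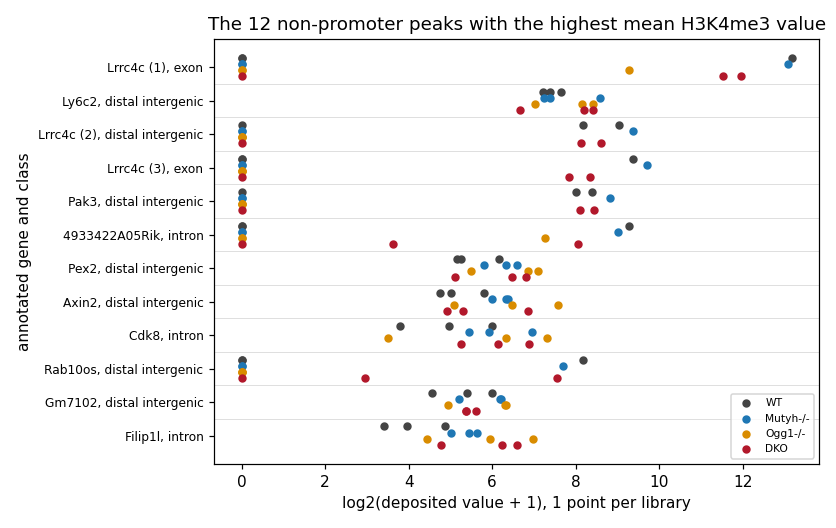
Each row is 1 of the 12 non-promoter peaks with the highest mean value, named by annotated gene and class, and each point is 1 library at log2(deposited value + 1), coloured by genotype, with several points at 0 lying on top of each other. In 6 rows the points split between 0 and high values, with WT, Mutyh-/- and DKO libraries on both sides, and in the other 6 every library is above 0.

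In each library, non-promoter peaks took 4.02% to 9.46% of all reads in peaks, a share that does not depend on how libraries are scaled. By genotype the shares were 4.35%, 9.46% and 4.02% in WT, 9.33%, 4.44% and 4.25% in Mutyh-/-, 4.41%, 4.21% and 4.52% in Ogg1-/- and 6.45%, 4.11% and 6.16% in DKO. WT replicate 2, Mutyh-/- replicate 1 and DKO replicates 1 and 3 stood above the other 8, which were between 4.02% and 4.52%. The means were 5.94 ± 3.05% (SD, n = 3) in WT, 6.01 ± 2.88% in Mutyh-/-, 4.38 ± 0.159% in Ogg1-/- and 5.57 ± 1.28% in DKO. Genotypes did not differ beyond this spread (exact permutation test of the F statistic over all groupings of the 12 libraries, p = 0.819, adjusted p = 0.840 over 6 shares). The recurrent peaks held 2.11% to 5.53% of the reads in those 4 libraries and 0.160% to 0.539% in the other 8. The single Lrrc4c peak held up to 4.02%.

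Without peaks shared between tables, the share was nearly constant. The 691 non-promoter peaks that overlapped no peak of another table took 3.27% to 3.66% of the reads in every library. Their means were 3.43 ± 0.043% in WT, 3.49 ± 0.20% in Mutyh-/-, 3.45 ± 0.044% in Ogg1-/- and 3.49 ± 0.069% in DKO (n = 3 each, exact permutation p = 0.871). The differences from WT were 0.057, 0.021 and 0.059 percentage points for Mutyh-/-, Ogg1-/- and DKO, and with 3 libraries against 3 an exact p cannot go below 0.1.

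**Figure D4:**
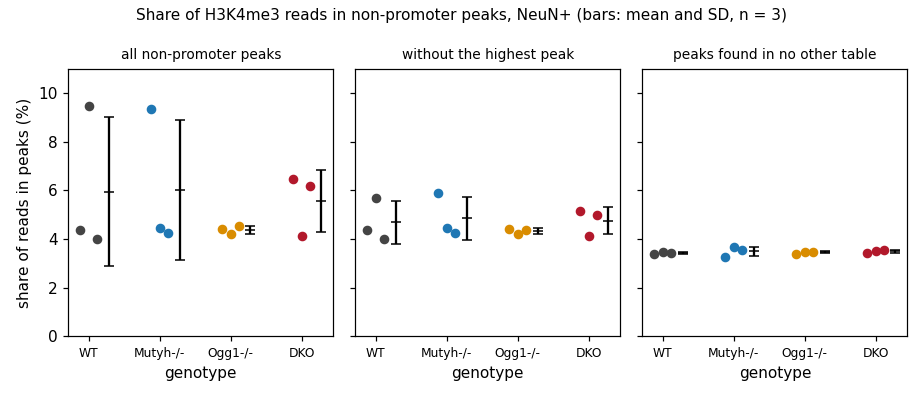
Each point is 1 library and gives the share of its reads in peaks, in percent, that fell in all non-promoter peaks (left), in all but the highest peak (middle) and in those that overlapped no peak of another table (right), with mean and SD for the 3 libraries of each genotype. The spread shrinks from 4.02% to 9.46% on the left to 3.27% to 3.66% on the right.

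The make-up of non-promoter reads was compared in the same way. CpG-rich peaks took 53.4 ± 21.6% of them in WT, 55.5 ± 22.8% in Mutyh-/-, 65.97 ± 0.684% in Ogg1-/- and 53.9 ± 12.9% in DKO (exact permutation p = 0.819, adjusted p = 0.840). The question is of interest because Ogg1 removes oxidised guanine and Mutyh the adenine paired with it. No difference could be detected at this spread. Without recurrent peaks, a setting added after seeing the data, the spread was smaller. The CpG-rich share was then 68.4 ± 1.16% in WT, 69.3 ± 1.72% in Mutyh-/-, 69.4 ± 0.73% in Ogg1-/- and 69.2 ± 0.656% in DKO (exact permutation p = 0.766). Distal peaks took 40.3% to 46.4% of non-promoter reads on average over the genotypes (exact permutation p = 0.796), exonic peaks 29.2% to 39.0% (p = 0.782, exact permutation), intronic peaks 14.4% to 17.2% (p = 0.548, exact permutation) and UTR and downstream peaks 6.14% to 7.34% (p = 0.840, exact permutation). Without recurrent peaks the means of exonic peaks were 30.8% to 31.5% (p = 0.461, exact permutation).

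Differential enrichment was then tested peak by peak, with limma on log2(value + 1) over all 12628 peaks. A peak counted as a differentially enriched region (DER) if its log2 fold change against WT exceeded 0.5 in size at an unadjusted p under 0.05. In Mutyh-/-, 16 non-promoter peaks were DERs (1.87%, against 0.911% of all peaks), 10 of them higher (0.341% of all peaks were) and 6 lower (0.57%). In Ogg1-/-, 23 were DERs (2.68%, against 0.966%), 19 higher (0.752% of all peaks) and 4 lower (0.214%). In DKO, 24 were DERs (2.8%, against 1.46%), 12 higher (0.483% of all peaks) and 12 lower (0.982%). No non-promoter peak had a Benjamini-Hochberg adjusted p under 0.05 in limma (0 of 857, against 0% of all peaks), with adjusted p of at least 0.9998 in limma, while 16, 23 and 24 had an unadjusted p under 0.05. Over all 12628 peaks 115, 122 and 185 had one. If no peak differed, a share of about 0.05 would pass this threshold, and each of these shares was smaller. The 3 comparisons share the WT libraries. The median log2 fold change of non-promoter peaks was -0.011, 0.097 and 0.037 in Mutyh-/-, Ogg1-/- and DKO, beside -0.068, 0.079 and -0.020 over all peaks. On recovered reads, other tools gave adjusted calls in Ogg1-/- alone among the knockouts: edgeR with the deposited scaling called 9 non-promoter peaks and DESeq2 6, against 0 with edgeR and TMM scaling. A pseudocount of 5 in limma gave 2 (Lrrc4c and Pak3). The 6 of DESeq2 were annotated to Gm5458, Lrrc4c (2 peaks), Chl1, Mir101c and Pak3, genes that the 9 of edgeR also held.

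Directions and counts of these DERs rested on few libraries. In Mutyh-/- the count was 25 (24 higher) without WT replicate 1, 27 without DKO replicate 1, and 21 (2 higher) without Mutyh-/- replicate 3. For Ogg1-/- it was 42 (38 higher) without Ogg1-/- replicate 2, 34 (6 higher) without Ogg1-/- replicate 3, 35 and 14 without WT replicates 1 and 2, and 36 without DKO replicate 1. DKO had 50 (13 higher) without DKO replicate 2 and 40 (4 higher) without DKO replicate 3. With TMM scaling the split into higher and lower was 28 and 10, 20 and 15, and 26 and 21, and the DERs were 4.43%, 4.08% and 5.48% of non-promoter peaks beside 3.75%, 3.81% and 5.54% of all peaks. The share in DKO was thus not above that of all peaks with this scaling. Of the DERs, 7 of 16, 11 of 23 and 16 of 24 were at 0 in at least 1 library, as were 231 of all 857 peaks (26.95%) and 5.94% of promoter peaks. Low levels also went with a wider error: the median standard error of the log2 fold change was 0.63 outside promoters and 0.47 at promoters, and 596 of the 857 peaks were in the lowest 25% of all peaks by level. Recurrent peaks made up 2 of the 16, 7 of the 23 and 3 of the 24 DERs, and the counts without recurrent peaks were 16, 17 and 21.

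**Figure D5:**
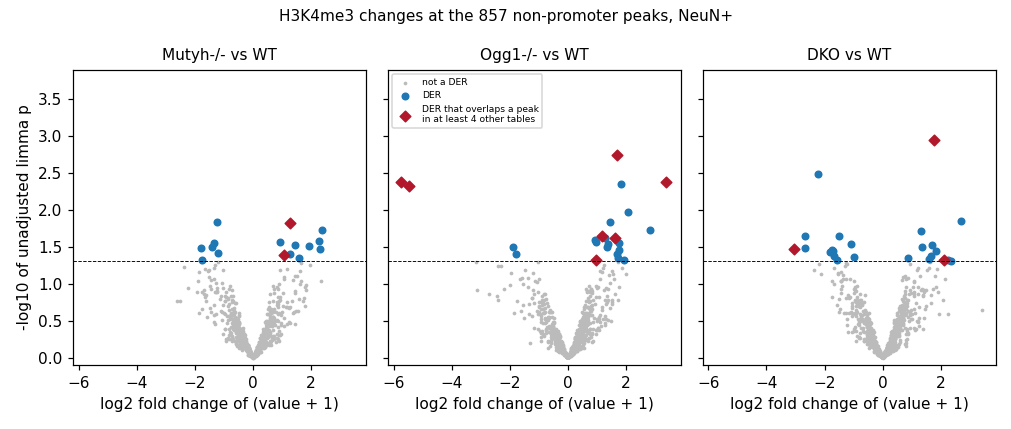
Each point is 1 of the 857 non-promoter peaks, with the log2 fold change of value + 1 against WT on the x axis and -log10 of the unadjusted limma p on the y axis, and a dashed line at the DER threshold on p. The highest point in DKO is the recurrent peak of Filip1l at a log2 fold change of 1.78, and the diamonds at -5.74 and -5.47 in Ogg1-/- are the Lrrc4c and Pak3 peaks that are at 0 in every Ogg1-/- library.

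Filip1l and Zfp939 are given first, with the values of each comparison side by side, because their peaks met the DER definition against the shared WT libraries in every knockout. The peak in an intron of Filip1l, which encodes a protein related to filamin A interacting protein (chr16:57391363-57391763), had 28.3, 14.6 and 9.69 in WT, 42.5, 48.7 and 31.5 in Mutyh-/-, 60.7, 20.5 and 125 in Ogg1-/- and 74.4, 26.5 and 94.8 in DKO. All Mutyh-/- libraries were above WT, and the lowest library of Ogg1-/- and of DKO fell inside the WT range. Log2 fold changes were 1.28 ± 0.50 (SE, limma unadjusted p = 0.0151), 1.70 ± 0.50 (unadjusted p = 0.00179 in limma) and 1.78 ± 0.50 (unadjusted p = 0.00114 in limma), and without WT replicate 3 the call in Mutyh-/- was lost (0.95). This CpG-rich peak, 38286 bp from the nearest GENCODE start, was recurrent in all 5 other tables. By mean value it ranked 13 of 4132 in H3K27me3 NeuN+ (WT 158 ± 18.1, SD, n = 3), 13 of 775 in Suz12 NeuN+ (WT 143 ± 69.7) and 30 of 312 in Suz12 NeuN- (WT 58.0 ± 47.1). The distal Zfp939 peak, near a zinc finger gene on chromosome 7, had 14.2, 0 and 6.46 in WT, 8.72, 13.8 and 20.2 in Mutyh-/-, 24.99, 7.18 and 19.2 in Ogg1-/- and 15.8, 12.1 and 17.4 in DKO. Its log2 fold changes were 1.58, 1.75 and 1.72, WT replicate 2 was at 0, and the highest WT value overlapped each knockout. The DKO call was lost without WT replicate 2 (0.58), without DKO replicate 3 (1.61) and in edgeR with either scaling. The Zfp939 calls in Mutyh-/- and Ogg1-/- were not followed through the alternatives.

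Among the peaks higher in Mutyh-/- was one at Crisp4, which encodes a cysteine-rich secretory protein. This exonic peak (chr1:18058039-18058439) was 30 bp from the start of the pseudogene Gm45784 and had 18.01, 13.7 and 18.3 in WT against 33.8, 28.5 and 35.04 in Mutyh-/-. The groups did not overlap, and the log2 fold change was 0.93 ± 0.40 (limma unadjusted p = 0.0273). Ogg1-/- had 33.3, 21.5 and 47.7 there, also above WT (0.94 ± 0.40, unadjusted p = 0.0259 in limma), and DKO 33.8, 28.95 and 21.98. At Otud7a, a deubiquitinase gene, an exonic peak had 1.29, 0 and 7.54 in WT and 11.99, 10.1 and 18.4 in Mutyh-/- (log2 fold change 2.39). Zfp324 was higher by 2.28, from 2.57, 0 and 1.08 to 7.63, 5.51 and 14.02. Without WT replicate 2 or Mutyh-/- replicate 3 the call in Mutyh-/- was lost at Crisp4 (0.80 and 0.87), Otud7a (1.67 and 2.16) and Zfp324 (1.79 and 1.94), and at Crisp4 also without Mutyh-/- replicate 1 (0.90).

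Peaks lower in Mutyh-/- included Unc5a, the one DER among the genes of the axon guidance list. Unc5a encodes a netrin receptor that mediates repulsion, and its CpG-rich intronic peak (chr13:54955933-54956333, 6522 bp from the start) had 9.004, 23.4 and 29.1 in WT against 4.36, 8.27 and 7.88 in Mutyh-/-. All 3 knockout values were below the lowest of WT, with a log2 fold change of -1.35 ± 0.59 (limma unadjusted p = 0.0279). It was 14.3, 8.21 and 26.9 in Ogg1-/- and 20.3, 20.1 and 15.9 in DKO. The distal peak annotated to Hjv, the hemojuvelin coreceptor of iron sensing, had 29.6, 22.4 and 21.5 in WT and 7.63, 8.27 and 14.02 in Mutyh-/- (-1.25 ± 0.49, limma unadjusted p = 0.0148), with no overlap. In DKO it was at 20.3, 32.2 and 16.7. The intronic peak annotated to a, the nonagouti gene, was 998 bp from the start of Gm14226. It had 12.9, 13.7 and 12.9 in WT and 4.36, 6.43 and 2.63 in Mutyh-/- (-1.43). The distal peak at Mreg, which encodes melanoregulin, lay 107 bp from the start of the lincRNA D230017M19Rik. Mreg had 16.7, 16.6 and 9.69 in WT and 0, 5.51 and 11.4 in Mutyh-/- (-1.79), so that the groups overlapped. Without Mutyh-/- replicate 1 its log2 fold change was -0.73 and the call was lost, as it was without WT replicate 1 or 2 (-1.67 for both) and in edgeR with the deposited scaling (-1.28). The call at Unc5a was lost without WT replicates 2 and 3 (-1.19 and -1.04) and without Mutyh-/- replicate 1 (-1.10), that at Hjv without WT replicate 1 (-1.11), and that at a without any 1 WT library or Mutyh-/- replicate 3 (-1.44 to -1.16).

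In Ogg1-/-, the distal peak at Klrb1c and the intronic peak of Cxxc5 were higher. Klrb1c encodes a lectin-like receptor of natural killer cells, and the CpG-rich peak annotated to it (chr6:128760253-128760653) had 2.57, 9.76 and 10.8 in WT and 28.6, 22.6 and 28.5 in Ogg1-/-. The lowest Ogg1-/- value was above the highest of WT, and the log2 fold change was 1.83 ± 0.60 (limma unadjusted p = 0.00452). The Mutyh-/- values were 8.72, 11.95 and 13.1 and those of DKO 9.02, 19.3 and 9.86. Of the 75-base stretches of the Klrb1c peak, 14.7% occurred more than once in the genome. Cxxc5 encodes a zinc finger protein that binds CpG, and its peak on chromosome 18 had 1.29, 1.95 and 8.62 in WT, 20.2, 14.4 and 13.8 in Ogg1-/- (2.07 ± 0.77, limma unadjusted p = 0.0106) and 13.5, 8.85 and 11.4 in DKO (1.59). Both knockouts were above every WT library. The distal peak at Fam171a1 held no CpG, was 74.6% masked and recurrent, and was higher by 3.39 in Ogg1-/-, at 52.4, 26.7 and 12.3 against 7.72, 0.976 and 0. The Fam171a1 call was lost in DESeq2.

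The 4 lower DERs of Ogg1-/- were of 2 sorts. The distal peaks annotated to Lrrc4c (chr2:98664929-98665329) and to Pak3, a p21-activated kinase gene (chrX:143482857-143483257), were recurrent and at 0 in all 3 Ogg1-/- libraries. The Lrrc4c peak had 289, 527 and 0 in WT and the Pak3 peak 256, 336 and 0, so that WT replicate 3 was at 0 like Ogg1-/-. Their log2 fold changes of -5.74 and -5.47 depend on the pseudocount and are no bound. Both calls were lost without WT replicate 2 (-4.09 and -4.00) and with robust variance in limma. Each was also at 0 in 2 Mutyh-/- libraries and in 1 DKO library. The other 2, at Lef1, a transcription factor of the Wnt pathway, and at Abca1, a cholesterol transporter, were low. Lef1 had 11.6, 7.81 and 15.1 in WT and 1.19, 0 and 14.6 in Ogg1-/-, and Abca1 had 9.004, 9.76 and 11.9 against 1.19, 0 and 14.6, so that Ogg1-/- replicate 3 was within or above WT at both. The Lef1 call was lost in 8 of 21 alternatives and the Abca1 call in 11 of 21, both edgeR scalings, DESeq2 and a pseudocount of 5 among them, and without Ogg1-/- replicate 2 the log2 fold changes were -1.05 and -0.93. The call at Lef1 was also lost without WT replicates 1 and 3 and Ogg1-/- replicate 1, and that at Abca1 without any 1 WT library, Ogg1-/- replicate 1 or Mutyh-/- replicate 2.

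In DKO, the distal peak at Cited4, whose product binds the coactivators CBP and p300, had the smallest p of the 12 lower DERs. It had 21.9, 25.4 and 37.7 in WT, 23.97, 19.3 and 26.3 in Mutyh-/-, 15.5, 8.21 and 26.9 in Ogg1-/- and 0, 16.1 and 12.1 in DKO. The DKO libraries were all below WT (-2.23 ± 0.70, limma unadjusted p = 0.00324), with the 0 in the shallowest library, DKO replicate 1, and without that library the call was lost (-0.93). Shf, an adaptor protein gene, was lower by 1.08, at 11.3, 8.85 and 18.95 against 27.01, 23.4 and 32.3, and Slc35f1 by 1.49, at 2.26, 15.3 and 11.4 against 29.6, 16.6 and 25.9. Without DKO replicate 1, Slc35f1 was at -0.78 and the call was lost, as it was without WT replicates 1 and 3 (-1.32 and -1.42). The Shf call was lost without WT replicates 1 and 3 and DKO replicate 2 (-1.09, -0.96 and -0.86). One of the 8 peaks annotated to Gm21190 was 0 in all 3 DKO libraries, and WT was at 3.86, 11.7 and 3.23. Higher in DKO were the 3′ UTR peak annotated to Mir450b, at 9.02, 8.85 and 17.4 against 1.29, 1.95 and 0 (2.69 ± 1.04, limma unadjusted p = 0.0141), and the distal peak at 4930441H08Rik, at 22.6, 32.97 and 26.5 against 19.3, 9.76 and 5.38 (1.33). The first of these calls was lost without WT replicate 3 (2.23) and DKO replicate 3 (2.39), the second without WT replicate 3 (0.92) and DKO replicate 2 (1.19), and that at Gm21190 without WT replicate 2. The Mir450b peak was also a DER in Mutyh-/-, at 4.36, 4.59 and 25.4 (2.29 ± 1.04, limma unadjusted p = 0.0343). In Ogg1-/- it had 1.19, 1.03 and 0.

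Whether the double knockout departs from the sum of the single ones was tested as DKO less both single knockouts plus WT on the log2 scale. In limma 15 non-promoter peaks had an unadjusted p under 0.05 for it (1.75%, against 0.839% of all peaks), and 0 had an adjusted p under 0.05 (0% of all peaks). The smallest p was at the Pak3 peak, with 8.04 ± 2.56 (limma unadjusted p = 0.00350), whose values were 256, 336 and 0 in WT, 449, 0 and 0 in Mutyh-/-, 0 in Ogg1-/- and 347, 0 and 272 in DKO. Of the 15, 8 were recurrent, and 9 peaks met the definition in a fit without recurrent peaks. Without a given library the count was 24 and 25 for WT replicates 1 and 3, 25 and 9 for Mutyh-/- replicates 1 and 2, 25 and 25 for Ogg1-/- replicates 2 and 3, and 37 and 25 for DKO replicates 2 and 3. edgeR with the deposited scaling gave 6 adjusted calls, at Rab10os, Gm5458, Lrrc4c, Chl1, Mir101c and Pak3. limma gave 2, at Lrrc4c and Pak3, with a pseudocount of 5 and again without DKO replicate 2, and DESeq2 and edgeR with TMM scaling gave 0.

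Genes of neuronal function had few peaks of this kind. Of 26 activity-regulated genes, 26 had a promoter peak and 6 also had a non-promoter peak, 7 peaks in all, with means of 9.84 to 17.2 normalised reads and 0 DERs (beside 0.911%, 0.966% and 1.46% of all peaks in Mutyh-/-, Ogg1-/- and DKO). The distal peak of Fos, the AP-1 subunit induced by neuronal activity, 11015 bp from its start (chr12:85485926-85486326), had 11.6, 23.4 and 20.5 in WT, 8.72, 12.9 and 27.2 in Mutyh-/-, 8.33, 18.5 and 29.99 in Ogg1-/- and 6.77, 24.9 and 13.7 in DKO. The genotypes overlapped, and the lowest library of each knockout was below the lowest of WT. A peak 26123 bp from the start of Egr1, a zinc finger factor of plasticity, had a mean of 16.04, and other peaks of the list were at Nr4a2, Fosl2, Fosb (2 peaks) and Ier2. The median log2 fold change over the 7 peaks was 0.217, 0.278 and -0.252 in Mutyh-/-, Ogg1-/- and DKO.

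Of 28 hippocampal transcription factor genes, 9 had 11 non-promoter peaks, with means of 6.13 to 17.5 and 0 DERs, a count to be read against the same shares of all peaks. An exonic peak annotated to Tcf4 was 440 bp from a lincRNA start and had a mean of 17.5. An intronic peak annotated to Nfia was 482 bp from the start of Gm12676 (17.3). The distal peak of Neurod2, a factor of excitatory neurons, whose CpG-dense window is printed above, had 12.9, 17.6 and 18.3 in WT and 5.95, 8.21 and 16.9 in Ogg1-/-. Of 26 glutamate synapse genes, 3 had 5 such peaks: Grin2b, an NMDA receptor subunit (3.93), Dlg2, the scaffold PSD-93 (14.1 and 19.1), and Shank2, a postsynaptic scaffold (8.27 and 11.5). None of the 5 was CpG-rich, and 0 were DERs beside those same shares. Of 24 axon guidance genes 1 had a peak, Unc5a, and of 11 genes that the study names none did.

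Peaks annotated to miRNA genes or their hosts numbered 48, of which 6 belonged to the masked Mir101c cluster. Of the other 42, 21 were within 1 kb of a GENCODE start, 34 could be matched to a hairpin in the RefSeq table (GRCm38.p6), and 24 of these 34 lay upstream of the hairpin, 17 of them within 25 kb. Mature sequences of 5 miRNAs of the brain are shown with the seed, bases 2 to 8, in capitals, to name the products of the loci next to these peaks (chosen after their values were seen).
miR-9-5p: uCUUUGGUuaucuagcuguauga
miR-137-3p: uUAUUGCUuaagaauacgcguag
miR-129-5p: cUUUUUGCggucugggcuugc
let-7a-5p: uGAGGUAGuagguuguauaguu
miR-7a-5p: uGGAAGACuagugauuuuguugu
The 5 seeds differ. Mir137, a regulator of neuronal maturation, had 2 peaks upstream of its hairpin, at 7806 and 2992 bp, with means of 12.2 and 14.9 normalised reads. The Mir7-2 peak was 5330 bp upstream (21.6), the Mirlet7a-1 peak 7514 bp upstream (18.2), the Mir129-2 peak 5520 bp upstream (8.26), and the Mir9-2 peak 6522 bp downstream of its hairpin (9.84). DERs in at least 1 knockout were 2 of the 42, beside 5.95% of non-promoter and 2.93% of all peaks, namely Mir450b and an exonic Mir3093 peak, higher by 0.98 in Ogg1-/- and 0.88 in DKO, 154 bp from the start of AW047730.

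The 857 peaks were annotated to 733 genes, 653 of which had 1 such peak, and 429 peaks belonged to a gene that also had a promoter peak. By contrast, 8 genes had at least 4 peaks each, 52 in all. They were Zfp982 (10 peaks over 190146 bp of chromosome 4), Or1f19 (8), Gm21190 (8), Zfp981 (7), Mir101c (6), Trim27 (5), Vmn1r3 (4) and Prl2c2 (4), mostly members of tandem gene families such as zinc finger, olfactory and vomeronasal receptor and prolactin genes. Mean values ranged from 0.488 to 14.1 at Zfp982 and from 0.646 to 2.23 at Prl2c2. In 7 of the 8 groups most peaks were at 0 in at least 1 library, and Trim27, with 1 such peak of 5 and none in another table, stood apart from the rest. At Gm21190 and Mir101c every peak held a 75-base stretch found more than once in the genome, so that reads there may be shared with near-identical copies.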

How the data were processed

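H3K4me3 ChIP-seq of NeuN+ nuclei (12 libraries, 3 per genotype) was analysed. Per the paper's methods and the labels, the authors aligned single-end reads of 75 bases to GRCm38 with Bowtie2 2.3.5.1, called enriched regions with epic2, kept those found in several replicates, counted reads with DiffBind 3.10.1 and annotated peaks with ChIPseeker 1.36. The deposited values are signal, reads divided by a factor per library, and 100% were whole multiples of 1 step per library, which gave back whole reads. How duplicates, blacklisted regions and input were treated is not given in the sources used here. That 5 animals were pooled per library comes from the study's methods. The study calls its replicates independent, and p-values measure the spread between these pools.

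limma 3.58.1 (R 4.3.3) was fitted to log2(value + 1) over all 12628 peaks, with genotype as the only term and the trend option, because the values were not raw counts. Fold changes on this scale understate changes of low peaks. Prior degrees of freedom were 24.9 against 8 residual. Benjamini-Hochberg adjustment ran over all peaks. edgeR 4.0.16 and DESeq2 1.42.0 on recovered reads were alternatives. Shares and levels were tested with exact permutation tests (numpy 2.4.6), two-sided. The fits were tested on simulated data. Sequences, soft-masking and GENCODE starts were read from the GRCm38 reference, and distances to GENCODE starts run from the peak centre. A motif was counted as present with at least 1 match on either strand.

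Named peaks were, per knockout, up to 4 DERs higher and 4 lower with the smallest p, the 3 highest of each class, list peaks that were DERs plus the 2 highest per list, and the smallest non-additive p. Members and lists were chosen with earlier results of these data known. Each ± is an SD over libraries or a standard error of the limma fit. Same-numbered replicates did not deviate together (correlations of -0.101 to 0.0687 over 3 pairs per knockout), so numbers were not treated as pairs. Alternatives covered scaling, pseudocount, a filter on low peaks, robust variance, a replicate block, each library left out, and repeat, recurrent and promoter-flank peaks left out. The choice of recurrent peaks, and all alternatives for levels, were added after seeing the data.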

Additional observations from a re-analysis of the deposited data

Results flagged for a closer look

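Values of 2 kinds stood outside the H3K4me3 NeuN+ table itself. The first is the number of non-promoter peaks that also overlapped a peak in at least 4 of the other 5 tables, 51, where 5 promoter peaks did. The second is the Suz12 value of NeuN- nuclei at the Filip1l peak, with a WT mean of 58.0 normalised reads (SD 47.1, n = 3), in a table in which genotypes were not compared here. The cause of both was not tested.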

How the results depend on the processing

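Counts of non-promoter DERs moved with the processing. The median peak had 4 to 26 reads per library, and the median standard error was 0.63 (log2). For Mutyh-/- (16) the count was 38 with TMM scaling, 46 in edgeR with TMM, 42 in DESeq2 and 6 without the lowest 25% of peaks, and 13 to 27 when 1 library was left out. For Ogg1-/- (23) it was 35, 41, 37 and 9, with 35 in edgeR with the deposited scaling and 14 to 42 over single libraries. For DKO (24) it was 47 with TMM (5.48% of non-promoter and 5.54% of all peaks), 42 in edgeR with TMM, 8 without the lowest 25%, and 19 to 50. For the non-additive contrast (15) it was 38, 50, 46 and 7 in the same order as for Mutyh-/-, 27 in edgeR with the deposited scaling, 28 with a pseudocount of 5, 9 without recurrent peaks and 9 to 37 over single libraries. With a replicate block the counts were 22, 29, 29 and 22. The block gave p = 0.856 for the share of non-promoter reads and 0.854 for that of CpG-rich peaks (permutation), against 0.819 for both without it. Of 9 knockout libraries, 3 correlated best with the WT library of their number. The higher peaks in Ogg1-/- were 23 of 41 in edgeR with TMM, 24 of 35 in edgeR with the deposited scaling and 19 of 37 in DESeq2, against 19 of 23. The cause of these shifts was not tested.

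Of 25 named changes under 529 alternatives in all, 468 kept the call, 61 lost it and 0 reversed. The changes were named for small p in the same data. Leaving out a library of a genotype outside a comparison could not move its log2 fold change. The tally therefore does not measure how robust the changes are. Changes that kept the call in each of the 21 alternatives holding their peak were 4: Filip1l in Ogg1-/- and in DKO, and Cxxc5 and Klrb1c in Ogg1-/-. Filip1l, being recurrent, was absent from the fit without recurrent peaks. Cxxc5 and Klrb1c were absent from that without the lowest 25% of peaks, so these settings did not assess them. Filip1l in Mutyh-/- lost the call without WT replicate 3. The share tests and the lower level of non-promoter peaks (-0.86 to -0.83 over single libraries) kept their side of the threshold under each alternative run.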

Other observations

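Near the deleted genes, 30 non-promoter peaks lay within 20 Mb of Mutyh (chr4:116807723-116819440) and 15 within 20 Mb of Ogg1 (chr6:113326972-113335068). DERs among the 30 included Tmem275 in Mutyh-/- and Cited4 and Nkain1 in DKO. Among the 15 there was 1, Klrb1c, in Ogg1-/- (6.67%), while 22 of 842 non-promoter peaks elsewhere were DERs in that knockout (2.61%). The difference was not tested.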
